A study of Homo sapiens with 6 samples.

Results

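The late response of Daoy cells to thapsigargin was read from 4 expression arrays, 2 of untreated cells and 2 of cells given 1 µM thapsigargin (Tg) for 8 h, out of 6 arrays in all. Daoy is an established line from a human medulloblastoma, a tumour of the cerebellum. It was grown in culture with serum, and the 8 h treatment was measured at a single dose. Arrays are numbered replicate 1 and replicate 2 in each group, and each Tg 8 h array was compared with the untreated array of its own number. The other 2 arrays, of cells given Tg for 3 h, stayed in the fit as a group of their own. The values are MAS5 signals, on a linear scale, for 54675 probe sets. All 25351 probe sets whose signal reached 100 on 2 or more of the 4 arrays were tested on the log2 scale with limma, with the replicate number as a block, and a result was called at an adjusted p under 0.05. A gene was read from its own probe set with the highest mean log2 signal, which gave 12195 genes of the 19775 that have a probe set of their own.

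Thapsigargin blocks the SERCA pumps that carry calcium into the endoplasmic reticulum (ER), and the chaperones of the ER need that calcium to fold secreted and membrane proteins. Unfolded proteins then switch on the unfolded protein response (UPR). Of its 3 sensors, ATF6 is cut in the Golgi into a transcription factor, IRE1 splices the mRNA of the transcription factor XBP1 and can cleave other mRNAs at the ER, and PERK phosphorylates eIF2α, which lowers general translation while that of ATF4 rises. These factors are known to raise genes for ER chaperones, for ER-associated degradation (ERAD, the disposal of misfolded proteins), for secretory transport and, through ATF4 and CHOP, for amino acid supply and cell death.

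Of 15 medulloblastoma and neural progenitor markers, 9 had a signal of at least 100 on all 4 arrays, among them the cerebellar factors ZIC1 and ZIC2, while ATOH1, BARHL1, MSI1 and MYCN lay under 100 on all 4. Of 10 immune markers 0 reached 100 on all 4 arrays. Of 12 fibroblast markers, 8 did, including the collagen genes COL1A1 and COL3A1. The replicate numbers differed in technical controls: signals of the hybridization controls (geometric mean per array) ran from 7762 to 11670.9 for replicate 1 but from 2718.4 to 2840.3 for replicate 2. Signs of RNA quality also moved with the treatment in both pairs. The 3' to 5' signal ratio of ACTB was 2.97 and 2.86 in untreated cells and 3.49 and 3.25 at 8 h, that of GAPDH 1.13 and 1.22 and then 1.20 and 1.24, and the 18S rRNA signal 1392 and 2568.2 and then 1158.3 and 1565.9. Of all arrays in the fit, Tg 3 h replicate 1 had the highest ACTB ratio, 4.47, and the lowest 18S rRNA signal, 664.2. Tg 3 h replicate 2 had 2.75 and 1593.9. The GAPDH ratio of Tg 3 h replicate 1 was 1.24, as on Tg 8 h replicate 2. The part of these differences in the results was not tested. In such bulk RNA, fewer cells of a type and less RNA per cell cannot be told apart.

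At 8 h, 1054 probe sets rose and 792 fell, 4.16% and 3.12% of those tested. Read by gene, 611 rose and 497 fell, 5.01% and 4.08% of the genes read, and these shares are the background for every gene group described here. The groups were chosen with earlier results of these data known, so a share above this background is not independent evidence. All 611 were higher and all 497 lower in both replicate pairs. The fit with the block favours genes whose pairs agree, so this agreement is not separate support. The arrays of the groups did not overlap for 582 of the 611 and 474 of the 497. Over all genes read, called or not, 1879 had both treated arrays above both untreated ones (15.4%) and 3306 had both below (27.1%), so non-overlap alone was common and more frequent downward. The rises were larger than the falls: 316 genes rose and 197 fell by at least 2-fold, 82 and 20 by at least 4-fold, and 22 and 4 by at least 8-fold. Of the 611, 16 were under 100 on both untreated arrays, and of the 497, 7 were under 100 on both Tg 8 h arrays. The signal filter admitted such genes in that direction only, so their direction is not a result of the test. Among them were BHLHA15, ERO1B, DSC1, FIBIN, EREG and CCL20 for the rises, and SLC2A12, RGCC and TGFB3 for the falls. The median log2 difference over all genes read was -0.09. Without the replicate block, limma called 83 genes higher and 28 lower, and with the block but without its intensity trend it called 0 in either direction, with 948 higher and 1305 lower at an unadjusted p under 0.05. The count also rested on single arrays. It was 250 higher and 89 lower without untreated replicate 1, 460 and 217 without untreated replicate 2, and 347 and 229 without Tg 8 h replicate 1. Centring each array on its median gave 717 higher and 342 lower.

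**Figure D1:**
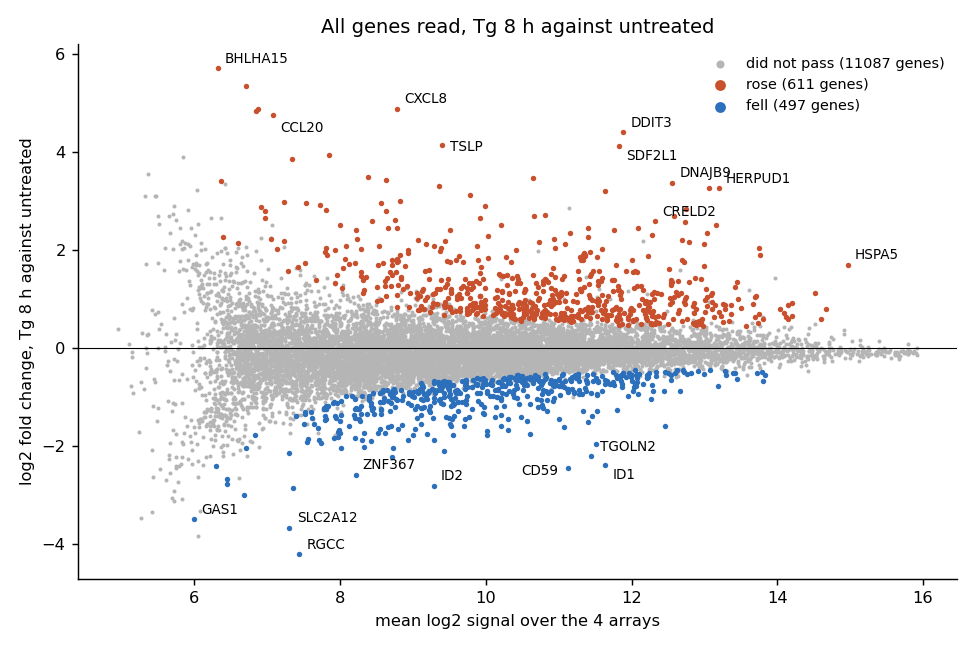
Each point is 1 of the 12195 genes read, with the mean log2 signal over the 2 untreated and 2 Tg 8 h arrays on the horizontal axis and the log2 fold change at 8 h on the vertical axis. The 611 genes that rose are orange and the 497 that fell are blue. The largest changes on the left, such as BHLHA15 and GAS1, involve signals under 100, while DDIT3, SDF2L1, DNAJB9 and HERPUD1 reached bright signals at 8 h.

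Genes for ER chaperones rose in the highest share of any list. Of the 22 ER chaperone genes read, 17 rose and 0 fell, with a median log2 fold change of 1.53 (1.77 in replicate 1 and 1.16 in replicate 2). Without the block 10 of them passed. SDF2L1, an ER protein that works with the chaperone BiP, had signals of 1258.9 and 593.4 in untreated cells and 18180.4 and 12581.2 at 8 h (log2 fold change 4.13, standard error 0.16, adjusted p = 8.42e-06). The dimmer treated array lay far above the brighter untreated array. DNAJB9, a J-domain cochaperone of BiP, had 1670.9 and 2095.8 in untreated cells and 22367 and 16832.7 at 8 h (log2 fold change 3.37, standard error 0.16, adjusted p = 1.53e-05). CRELD2 had 1950.6 and 2238 in untreated cells and 12079.6 and 13062.6 at 8 h (log2 fold change 2.59, standard error 0.12, adjusted p = 1.25e-05), and its 2 replicate pairs gave nearly the same difference, 2.63 and 2.55. HYOU1, the nucleotide exchange factor of BiP, had 2257.8 and 3426.7 in untreated cells and 16884.9 and 16438.5 at 8 h (log2 fold change 2.58, standard error 0.16, adjusted p = 5.01e-05). HSP90B1, the HSP90 of the ER, had 3665.8 and 3734.4 in untreated cells and 21485.3 and 16713.7 at 8 h (log2 fold change 2.36, standard error 0.13, adjusted p = 2.49e-05). For all 5 of these genes the lower treated array lay far above the higher untreated array.

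HSPA5, which encodes BiP itself, was among the brightest signals on the arrays. It had 16614.5 and 18933.2 in untreated cells and 75398.1 and 44209.5 at 8 h (log2 fold change 1.70, standard error 0.21, adjusted p = 0.00183 with the block and 0.124 without it), and the treated arrays stood above the untreated ones in both pairs. Another probe set of HSPA5 had 608.2 and 419 in untreated cells and 8627.8 and 6574 at 8 h (log2 fold change 3.90, adjusted p = 4.80e-06). The 2 probe sets thus gave the same direction and different sizes for 1 gene.

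Of 29 ER folding enzyme genes read, 11 rose and 0 fell, with a median of 0.34. Without the block 4 passed. PDIA4, a protein disulfide isomerase, had 1367.1 and 1640.6 in untreated cells and 7395.2 and 8625.3 at 8 h (log2 fold change 2.41, standard error 0.12, adjusted p = 1.69e-05). FKBP11, a prolyl isomerase of the ER, had 1023.7 and 928.6 in untreated cells and 4374 and 3704.6 at 8 h (log2 fold change 2.05, standard error 0.13, adjusted p = 6.44e-05), and FKBP14 rose by 1.57 on the log2 scale. PDIA3, the isomerase that acts on glycoproteins, rose by 1.20 (adjusted p = 0.00206 with the block and 0.145 without it). ERO1B, an oxidase that recharges disulfide isomerases, had the highest log2 fold change of the group but from dim signals, 4.8 and 56 in untreated cells and 652.4 and 685.9 at 8 h (log2 fold change 5.35, standard error 0.79, adjusted p = 0.00433 with the block and 0.0763 without it). Its untreated arrays were far apart and both under 100. With signals under 100 raised to 100, ERO1B rose by 2.74 (adjusted p = 0.00102). It was read only because both Tg 8 h arrays reached 100, and could only enter as higher. The floor makes its untreated arrays equal, so the smaller adjusted p adds no support. The plot of signals of the ER and secretory genes shows these values by array.

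**Figure D2:**
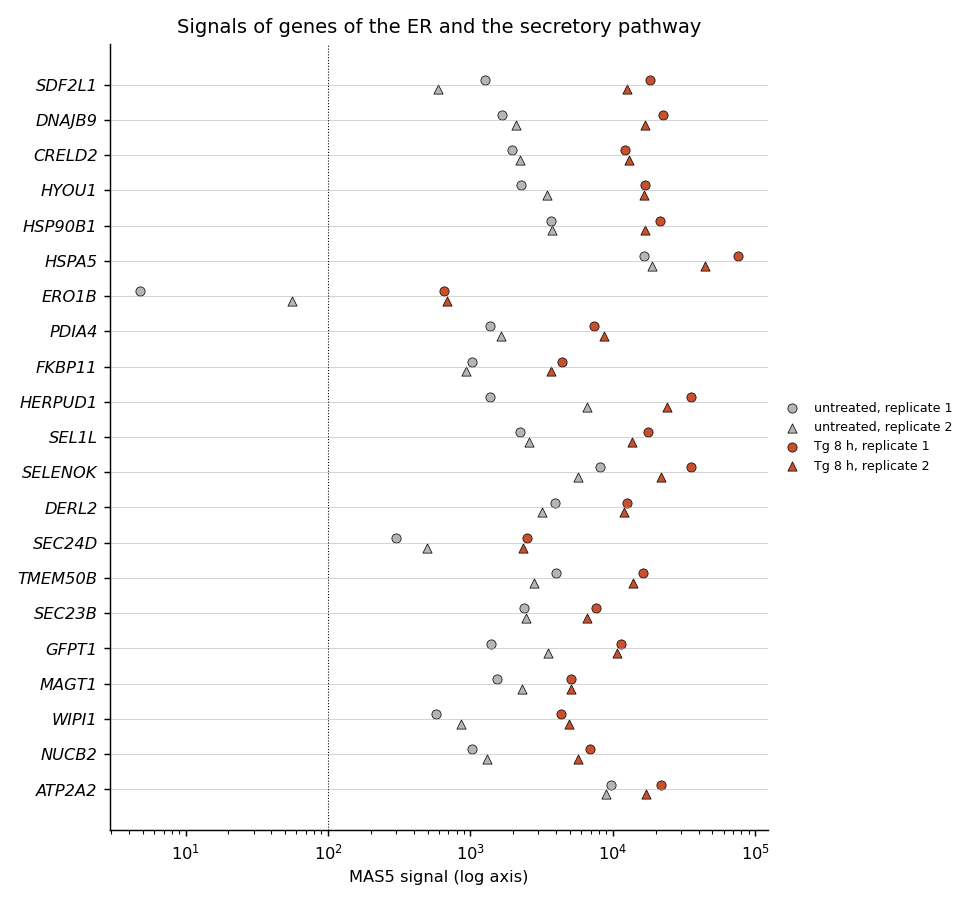
MAS5 signal on a log axis for 21 genes of the ER and the secretory pathway, with circles for replicate 1 and triangles for replicate 2, grey for untreated cells and orange for Tg 8 h. The dotted line marks a signal of 100, and the untreated and treated arrays do not overlap for any gene drawn.

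Several of these genes share a sequence in front of their start. The ER stress response element (ERSE), bound by ATF6 together with NF-Y, has the parts CCAAT and CCACG with 9 bases between them. It was searched on both strands of the 250 bases before the start site in the RefSeq promoter table, which held 10015 of the genes read. ERSE stood in 22 of all 27305 promoters (0.0806%), in 14 of the genes read (0.14%), in 9 of the 514 genes that rose (1.75%) and in 0 of the 418 that fell. Among the 71 chaperone, folding enzyme and ERAD genes read it stood in 7 (9.86%). ERSE-II, in which ATTGG and CCACG are 1 base apart, stood in 12 of the genes read (0.12%) and in 7 that rose. It was found before SDF2L1, HERPUD1 and, with 2 copies, HYOU1. The UPRE core TGACGTGG, which holds the CCACG part on its other strand, stood in 0.809% of the genes read and in 2.72% of those that rose. A match is a run of letters and does not show binding.

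The promoters below, of the RefSeq table on GRCh38.p14, are those of the named genes with the largest rise that hold ERSE. They are shown because they place the same 2 parts at different distances from the start, in either orientation. Each is the 250 bases before the start, in the direction of transcription, and capitals mark ERSE. ERO1B lies at chr1:236281959-236282208 on the minus strand, with ERSE beginning 243 bases before the start. CRELD2 lies at chr22:49918384-49918633 on the plus strand, with ERSE 80 bases before the start. HSP90B1 lies at chr12:103930160-103930409 on the plus strand, and holds ERSE at 194 and, in the opposite orientation, at 89 bases before the start.
ERO1B: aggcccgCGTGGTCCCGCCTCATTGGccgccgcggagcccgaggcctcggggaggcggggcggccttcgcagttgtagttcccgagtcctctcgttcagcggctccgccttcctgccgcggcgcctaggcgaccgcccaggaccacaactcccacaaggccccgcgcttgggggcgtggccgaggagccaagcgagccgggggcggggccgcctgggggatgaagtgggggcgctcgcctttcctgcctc
CRELD2: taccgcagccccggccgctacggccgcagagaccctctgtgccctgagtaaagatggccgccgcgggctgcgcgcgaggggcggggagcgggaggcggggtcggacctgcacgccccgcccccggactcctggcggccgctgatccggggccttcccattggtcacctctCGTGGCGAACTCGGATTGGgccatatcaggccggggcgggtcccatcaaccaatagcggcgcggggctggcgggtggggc
HSP90B1: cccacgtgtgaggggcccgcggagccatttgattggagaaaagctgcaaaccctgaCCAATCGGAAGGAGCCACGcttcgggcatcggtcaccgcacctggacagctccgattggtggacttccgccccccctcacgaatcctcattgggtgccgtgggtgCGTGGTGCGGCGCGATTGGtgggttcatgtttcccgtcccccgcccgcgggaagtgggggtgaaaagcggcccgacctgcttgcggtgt

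Genes for the removal of misfolded proteins rose as well. Of 32 ERAD genes read, 13 rose and 0 fell, with a median of 0.26, and 6 passed without the block. SEL1L, the scaffold of the HRD1 ubiquitin ligase, had 2221.3 and 2579.9 in untreated cells and 17719.6 and 13731.7 at 8 h (log2 fold change 2.70, standard error 0.15, adjusted p = 2.74e-05), with both treated arrays far above both untreated ones. SELENOK, a selenoprotein of the ER membrane, had 8159.4 and 5661.1 in untreated cells and 35619.5 and 21673.8 at 8 h (log2 fold change 2.03, standard error 0.11, adjusted p = 2.49e-05 with the block and 0.0512 without it). DERL2, a component of the channel through which proteins leave the ER, had 3948.7 and 3179.9 in untreated cells and 12638.1 and 11988.8 at 8 h (log2 fold change 1.80, standard error 0.13, adjusted p = 1.27e-04). HERPUD1, an adaptor of the same ligase, had 1376.1 and 6623.3 in untreated cells and 35130.9 and 23998.2 at 8 h (log2 fold change 3.27, standard error 0.53, adjusted p = 0.00672 with the block and 0.0859 without it). Its untreated replicate 2 array was already several times brighter than replicate 1, so that the difference was 4.67 in replicate 1 and 1.86 in replicate 2.

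Of 53 genes of ER translocation and N-glycosylation, 20 rose and 1, PRKCSH, fell. PRKCSH, which encodes the beta subunit of glucosidase II, fell by 0.67 on the log2 scale. The median was 0.36. GFPT1, the first enzyme of hexosamine synthesis, had 1404.1 and 3517.5 in untreated cells and 11402.3 and 10741.9 at 8 h (log2 fold change 2.32, standard error 0.26, adjusted p = 0.00111 with the block and 0.0799 without it). MAGT1, an oxidoreductase of the oligosaccharyl transferase, rose by 1.43, ALG2, a mannosyl transferase for the lipid-linked sugar, by 1.16, and UAP1, which makes UDP-GlcNAc, by 1.14 on the log2 scale. Most rises in this group were under 2-fold, and 1 passed without the block. Its count of rises was 11 without untreated replicate 1 and 12 without untreated replicate 2, and PRKCSH did not pass without either untreated array or Tg 8 h replicate 2.

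Transport from the ER to the Golgi held the most rises of any list, 27 of 53 genes read, with 0 falls and a median of 0.50. SEC24D, a cargo adaptor of the COPII coat, had 299.5 and 493 in untreated cells and 2502.3 and 2333.8 at 8 h (log2 fold change 2.65, standard error 0.23, adjusted p = 3.31e-04). TMEM50B, an ER and Golgi membrane protein, had 3998.9 and 2782.8 in untreated cells and 16413.6 and 13790.8 at 8 h (log2 fold change 2.17, standard error 0.14, adjusted p = 6.21e-05). SEC23B, another subunit of the coat, had 2365.8 and 2472.9 in untreated cells and 7582.2 and 6629 at 8 h (log2 fold change 1.55, standard error 0.13, adjusted p = 2.11e-04). The untreated and treated arrays of these 3 genes were well apart. MIA2, which helps load large cargo, went from 206.1 and 307.1 to 560.6 and 658.5 (log2 fold change 1.27), a call that was lost without untreated replicate 1 (adjusted p = 0.126), untreated replicate 2 (0.0704) or Tg 8 h replicate 1 (0.166). Of the list, 3 passed without the block. The count was 12 without Tg 8 h replicate 1, 10 without untreated replicate 1 and 14 without untreated replicate 2.

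Of 28 autophagy genes read 4 rose and 0 fell, with a median of 0.06. WIPI1, which binds the phospholipid that marks forming autophagosomes, had 571.3 and 864.8 in untreated cells and 4354.7 and 4920.3 at 8 h (log2 fold change 2.72, standard error 0.16, adjusted p = 3.21e-05). CCPG1, a receptor for autophagy of the ER itself, had 410.7 and 786.4 in untreated cells and 1610.8 and 1660.3 at 8 h (log2 fold change 1.52, adjusted p = 0.00774). This call was lost without untreated replicate 1 (adjusted p = 0.0947). The other two were ATG13 with 0.93 and MAP1LC3B with 0.88 on the log2 scale, and without untreated replicate 1 their adjusted p was 0.171 and 0.0711. Without Tg 8 h replicate 1 it was 0.0861 and 0.0622.

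Of 23 UPR sensor and transcription factor genes read, 10 rose and 0 fell, with a median of 1.08 (1.31 in replicate 1 and 0.44 in replicate 2). Without the block 3 passed. DDIT3, which encodes CHOP, had 405.4 and 1654.4 in untreated cells and 20008.8 and 15123 at 8 h (log2 fold change 4.41, standard error 0.47, adjusted p = 8.85e-04), and both treated arrays were far above the brighter untreated one. Of the sensors, EIF2AK3, which encodes PERK, had 621.8 and 1038.5 in untreated cells and 3190.1 and 4019.1 at 8 h (log2 fold change 2.16, standard error 0.15, adjusted p = 7.55e-05). ERN1, which encodes IRE1, had 184.6 and 310 in untreated cells and 651.1 and 1024.7 at 8 h (log2 fold change 1.77, standard error 0.21, adjusted p = 0.00121 with the block and 0.134 without it). ATF6 had 774.7 and 1043.4 in untreated cells and 1393.9 and 1757.2 at 8 h and did not pass (log2 fold change 0.80, adjusted p = 0.105). In these bulk signals the genes of PERK and IRE1 thus rose, while for ATF6 the call was not reached.

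XBP1, measured here over all its splice forms together, had 907.9 and 3018 in untreated cells and 4560 and 4663.2 at 8 h (log2 fold change 1.48, standard error 0.32, adjusted p = 0.0256 with the block and 0.314 without it). Its call was lost on leaving out untreated replicate 1 (adjusted p = 0.0971) or Tg 8 h replicate 1 (0.059). ATF3, a stress-induced repressor, had 680 and 2723.4 in untreated cells and 4269.4 and 6087.8 at 8 h (log2 fold change 1.91, standard error 0.31, adjusted p = 0.00664 with the block and 0.261 without it). ATF4 had 4504.9 and 20998.9 in untreated cells and 24943.2 and 27597.7 at 8 h and did not pass (log2 fold change 1.43, adjusted p = 0.0528). For all 3 genes untreated replicate 2 was far brighter than untreated replicate 1. BHLHA15, or MIST1, a factor known from secretory cells, had the highest log2 fold change of the called genes whose higher group averaged 500 or more, termed bright here, from 15.7 and 7.7 to 563.6 and 591.2 (log2 fold change 5.71, standard error 0.71, adjusted p = 0.00171). Its untreated signals lay far under 100 on both arrays, and with signals under 100 raised to 100 the value was 2.53. It was thus read only because both Tg 8 h arrays reached 100, and could only enter as higher. By the local pooled error test, the test of the study, its adjusted p was 0.265. Without Tg 8 h replicate 2 its adjusted p was 0.0533.

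The targets of PERK and ATF4 had the widest gap between the medians of the replicate pairs among the lists with at least 5 genes read. Of 41 genes read, 16 rose and 0 fell, with a median of 0.94. All 41 had a larger difference in replicate 1 than in replicate 2, and the medians were 1.77 and 0.26. In untreated cells the replicate 2 array was brighter than the replicate 1 array for 40 of the 41, with a median log2 difference of 1.72 between these arrays. Without the block 0 of the 41 passed in limma, while the local pooled error test called 10. The count was 3 without untreated replicate 1, 26 without untreated replicate 2, 6 and 7 without the replicate 1 and 2 arrays of Tg 3 h, 7 without Tg 8 h replicate 1 and 33 without Tg 8 h replicate 2. The part of this difference between the untreated arrays in the calls was not tested.

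TRIB3, a pseudokinase induced by CHOP and ATF4, had 839.9 and 7879.1 in untreated cells and 20906.6 and 16096.9 at 8 h (log2 fold change 2.83, standard error 0.61, adjusted p = 0.0249 with the block and 0.286 without it), with differences of 4.64 and 1.03 in the replicate pairs. SLC7A11, the cystine transporter, had 523.8 and 6641.8 in untreated cells and 9242 and 11093.5 at 8 h (log2 fold change 2.44, standard error 0.59, adjusted p = 0.0385 with the block and 0.457 without it), with 4.14 and 0.74. SESN2, a stress protein that restrains growth signalling, had 192 and 2093.3 in untreated cells and 4130.9 and 4055.1 at 8 h (log2 fold change 2.69, standard error 0.66, adjusted p = 0.0409 with the block and 0.323 without it), with 4.43 and 0.95. These 3 genes, with ERO1B and the neuropeptide gene VIP, had the replicate pairs farthest apart among bright genes that were called. Their treated arrays were alike and above both untreated arrays, which themselves were far apart. Leaving out an array ended these calls at Tg 3 h replicate 1 (adjusted p = 0.056 for TRIB3, 0.0725 for SLC7A11 and 0.0593 for SESN2) and at Tg 3 h replicate 2 (0.0529, 0.0693 and 0.0564 in that order). Without untreated replicate 1 it was 0.086 for TRIB3 and 0.137 for SLC7A11, and without Tg 8 h replicate 1 0.0617 for SLC7A11 and 0.06 for SESN2.

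Other members differed in how far apart their pairs were. PPP1R15A, or GADD34, which recruits the phosphatase that reverses the PERK signal, had 576.6 and 1411.6 in untreated cells and 3538.3 and 5004.6 at 8 h (log2 fold change 2.22, standard error 0.19, adjusted p = 3.20e-04 with the block and 0.0799 without it) and differed by 2.62 and 1.83 in the pairs. GDF15, a stress-induced secreted factor, had 309.5 and 3505 in untreated cells and 7897.7 and 11795.2 at 8 h (log2 fold change 3.21, standard error 0.51, adjusted p = 0.00579 with the block and 0.356 without it). The pairs of GDF15 differed by 4.67 and 1.75, and its log2 fold change ran from 1.99 without Tg 8 h replicate 1 to 4.43 without Tg 8 h replicate 2. ASNS, asparagine synthetase, had 1295.9 and 10739.9 in untreated cells and 9645.1 and 13158.2 at 8 h and did not pass (log2 fold change 1.59, adjusted p = 0.0727). Its untreated replicate 2 signal was above the treated replicate 1 signal, so that the groups overlapped.

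**Figure D3:**
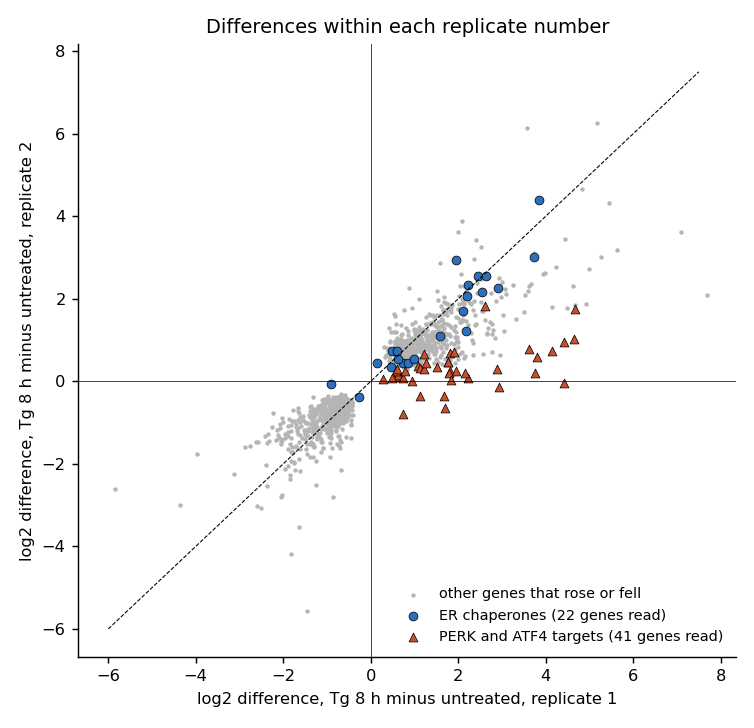
Log2 difference of Tg 8 h minus untreated in replicate 1 (horizontal) and replicate 2 (vertical), with the dashed line where both are equal. Grey points are the other genes that rose or fell, blue circles the 22 ER chaperone genes read and orange triangles the 41 PERK and ATF4 target genes read, whether or not they passed. The triangles all lie below the line, with medians of 1.77 and 0.26, while the circles lie on both sides of it.

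The element that ATF4 binds with C/EBP partners, with the core TGATGNAA (CARE), stood in 161 of the 10015 promoters of genes read (1.61%), in 19 of the 514 that rose (3.7%), in 7 of the 418 that fell (1.67%), and in 5 of the 33 PERK and ATF4 targets in the table (15.2%). It shares its first bases with the cyclic AMP element TGACGTCA, which stood in 2.98% of the genes read and in 2.33% of those that rose. CARE was found before ATF3 and ASNS. The 2 named genes with the largest rise that hold it were KLHDC7B and HERPUD1, and their 250 bases are shown with the core in capitals, in both cases on the opposite strand. KLHDC7B lies at chr22:50545649-50545898 and HERPUD1 at chr16:56931892-56932141 of GRCh38.p14, both on the plus strand, and the core begins 151 and 176 bases before the start. HERPUD1 also holds ERSE-II, as given with the chaperone genes.
KLHDC7B: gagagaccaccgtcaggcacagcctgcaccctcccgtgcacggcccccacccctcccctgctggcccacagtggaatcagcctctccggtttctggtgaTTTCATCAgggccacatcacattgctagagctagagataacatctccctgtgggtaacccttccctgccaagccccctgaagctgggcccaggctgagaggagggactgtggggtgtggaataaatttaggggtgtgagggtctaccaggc
HERPUD1: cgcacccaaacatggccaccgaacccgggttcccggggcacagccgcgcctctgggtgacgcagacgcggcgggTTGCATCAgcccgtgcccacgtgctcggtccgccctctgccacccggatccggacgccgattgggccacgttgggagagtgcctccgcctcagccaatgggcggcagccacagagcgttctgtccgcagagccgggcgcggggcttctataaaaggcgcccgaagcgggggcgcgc

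Genes of calcium handling were mixed, with 5 of 30 read higher and 2 lower. RCAN1, a regulator of calcineurin, had 2258.5 and 3361.5 in untreated cells and 34560.1 and 20423.6 at 8 h (log2 fold change 3.27, standard error 0.28, adjusted p = 2.96e-04). NUCB2, a calcium-binding protein of the secretory pathway, had 1024.4 and 1304.8 in untreated cells and 6893.3 and 5707.2 at 8 h (log2 fold change 2.44, standard error 0.16, adjusted p = 6.44e-05). ATP2A2, which encodes the SERCA2 pump that thapsigargin blocks, had 9640.8 and 8909.2 in untreated cells and 21894 and 17048.8 at 8 h (log2 fold change 1.06, standard error 0.11, adjusted p = 7.98e-04 with the block and 0.113 without it), about 2-fold higher with no overlap. The plasma membrane pump gene ATP2B1 rose by 0.92 and NUCB1 by 0.67, while the pump gene ATP2B4 fell by 0.86 and RCAN3 fell by 0.87 on the log2 scale. The count of rises was 3 without untreated replicate 1 and that of falls 0 without either untreated array.

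Of 27 genes of sterol and fatty acid synthesis, 8 rose and 0 fell, with a median of 0.14. STARD4, which carries cholesterol between membranes, had 368.5 and 661.2 in untreated cells and 2883.6 and 2744.4 at 8 h (log2 fold change 2.51, standard error 0.21, adjusted p = 2.93e-04). The synthesis enzymes MSMO1, NSDHL and HMGCS1 rose by 1.29, 1.12 and 1.07 on the log2 scale. NSDHL lost its call without untreated replicate 1, untreated replicate 2 or Tg 8 h replicate 1 (adjusted p = 0.135, 0.169 and 0.216). The count was 4 without either untreated array and 5 without Tg 8 h replicate 1. Of 22 genes of ER phospholipid synthesis 1, the ethanolamine kinase gene ETNK1, rose. Its other probe sets ran from -0.08 to 0.39 on the log2 scale and did not pass, but the one read rose by 0.69 and was called. That call was lost without either untreated array or either Tg 8 h array (adjusted p = 0.208, 0.109, 0.177 and 0.0664).

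Some genes of secreted signals rose. Of 18 chemokine and cytokine genes read, 9 rose and 1, TNFSF4, fell. The median was 1.69, with similar medians in the pairs (1.83 and 1.66). The list has 38 genes on the array, and those not read did not pass the signal filter. A gene under 100 on both untreated arrays, such as CCL20, was read only if both Tg 8 h arrays reached 100. Such members could only enter as higher, so the share of rises and the median are not free of this selection. TSLP, an epithelial cytokine, had 85.5 and 303.7 in untreated cells and 3292.5 and 2453.8 at 8 h (log2 fold change 4.14, standard error 0.41, adjusted p = 6.84e-04). IL1A had 78 and 187.7 in untreated cells and 1045 and 1631.3 at 8 h (log2 fold change 3.43, standard error 0.23, adjusted p = 6.54e-05). IL6 had 213.9 and 105.5 in untreated cells and 853.2 and 1286.4 at 8 h (log2 fold change 2.80, standard error 0.35, adjusted p = 0.0017). In all 3 the treated arrays lay clear of the untreated ones. CXCL8, the gene of interleukin-8, and the chemokine gene CCL20 had 42.3 and 153.8 and 24.5 and 27.6 in untreated cells and 1853.2 and 3091.3 and 701.7 and 697.5 at 8 h (log2 fold changes 4.89 and 4.75). Both started from signals that were dim or partly dim, and with signals under 100 raised to 100 they rose by 4.27 and 2.81. TNFSF4, a member of the tumour necrosis factor family, fell by 1.36. The NF-kB subunit and feedback genes, which include targets of inflammatory signalling, had 1 rise of 17 read, NFKBIZ with 0.92, which was lost without untreated replicate 1 (adjusted p = 0.0945) or Tg 8 h replicate 1 (0.08).

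Positive regulators of angiogenesis went both ways, with 9 of 37 read higher and 6 lower, and a median of -0.01. The list holds genes that the study selected on these arrays, so its direction is not independent evidence. PTGS2, the inducible cyclooxygenase, had 113.3 and 386.9 in untreated cells and 1801.7 and 2367.6 at 8 h (log2 fold change 3.30, standard error 0.29, adjusted p = 3.41e-04). ANG, angiogenin, had 123.1 and 207.8 in untreated cells and 1548.2 and 1071.8 at 8 h (log2 fold change 3.01, standard error 0.31, adjusted p = 7.98e-04). FGF2 had 139.5 and 393.9 in untreated cells and 632.2 and 1089.1 at 8 h (log2 fold change 1.82, standard error 0.25, adjusted p = 0.00264 with the block and 0.329 without it). VEGFA had 1854.4 and 6031 in untreated cells and 10978.9 and 9600.9 at 8 h (log2 fold change 1.62, standard error 0.34, adjusted p = 0.0218 with the block and 0.264 without it), with differences of 2.57 and 0.67 in the pairs, and without untreated replicate 1 its adjusted p was 0.0863. Each of these 4 genes had both treated arrays above both untreated ones, but for VEGFA the untreated arrays were far apart. Another VEGFA probe set rose by 1.58 (adjusted p = 0.00663). Further ones gave 0.35 and 1.04 and did not pass (adjusted p = 0.465 and 0.175). Their differences in the replicate 2 pair were 0.06 and 0.0. EREG, a ligand of the EGF receptor, had dim signals, 91.2 and 27.1 in untreated cells and 465.6 and 212.6 at 8 h, and lost its call without either Tg 8 h array (adjusted p = 0.148 and 0.0605).

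The falls among these regulators included TGFB3, with 308.7 and 271.2 in untreated cells and 86.9 and 14.9 at 8 h (log2 fold change -3.01, standard error 0.62, adjusted p = 0.02 with the block and 0.261 without it). With signals under 100 raised to 100 its value was -1.53 (adjusted p = 0.051), and without untreated replicate 2 the adjusted p was 0.228. The count of falls was 1 without untreated replicate 1, 0 without untreated replicate 2, and also 1 without Tg 8 h replicate 1, and that of rises was 5 without untreated replicate 1. Of 16 negative regulators 0 rose and 2 fell. These were TIMP2, an inhibitor of matrix metalloproteases, with 5757.8 and 8696 in untreated cells and 2520.7 and 4599.5 at 8 h (log2 fold change -1.06, standard error 0.12, adjusted p = 0.00127 with the block and 0.39 without it), and the collagen gene COL4A2, by 0.76 on the log2 scale. VASH1, vasohibin, had 183 and 279.7 in untreated cells and 93.5 and 127.6 at 8 h and did not pass (log2 fold change -1.05, adjusted p = 0.218). COL4A2 lost its call without untreated replicate 1, untreated replicate 2 or Tg 8 h replicate 2 (adjusted p = 0.0801, 0.158 and 0.197).

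Among the immediate early and MAPK feedback genes, 5 of 30 read rose and 0 fell. SPRY4, an inhibitor of receptor tyrosine kinase signalling, had 107.2 and 222.8 in untreated cells and 463.7 and 844.9 at 8 h (log2 fold change 2.02, standard error 0.24, adjusted p = 0.00125 with the block and 0.123 without it). MAFF, a small MAF factor, rose by 1.80, the phosphatase genes DUSP5 and DUSP6 by 1.51 and 0.98, and IER3 by 0.89 on the log2 scale. DUSP6 lost its call without either untreated array or Tg 8 h replicate 2 (adjusted p = 0.0851, 0.14 and 0.133). Of the BCL-2 family and death receptors, 5 of 28 rose and 2 fell. The rises numbered 3 without untreated replicate 1 or either Tg 3 h array, 2 without Tg 8 h replicate 1 and 1 without the block. TNFRSF10B, the death receptor DR5, had 1045.4 and 1651.3 in untreated cells and 4543.2 and 5047 at 8 h (log2 fold change 1.87, standard error 0.17, adjusted p = 3.99e-04). TNFRSF21, death receptor 6, had 2554.5 and 1432.7 in untreated cells and 613 and 502.7 at 8 h (log2 fold change -1.78, standard error 0.17, adjusted p = 6.41e-04 with the block and 0.0637 without it). BIRC2, an inhibitor of apoptosis, rose by 1.04, PMAIP1, or NOXA, by 1.02, TNFRSF10A by 0.76 and XIAP by 0.57. BMF, a BH3-only protein, fell by 1.83, a call lost without untreated replicate 2, either Tg 3 h array or Tg 8 h replicate 2 (adjusted p = 0.291, 0.0606, 0.053 and 0.0772).

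Several of the largest rises lay outside these pathways. TAC1, the precursor of substance P, had 181 and 1289.2 in untreated cells and 4464 and 6374.3 at 8 h (log2 fold change 3.46, standard error 0.41, adjusted p = 0.00135 with the block and 0.195 without it), with 4.62 and 2.31 in the pairs. LAMP3, a lysosomal membrane protein, had 28.5 and 120.8 in untreated cells and 615.1 and 1321.4 at 8 h (log2 fold change 3.94, standard error 0.45, adjusted p = 0.0011 with the block and 0.0654 without it), and KLHDC7B, a kelch domain protein, had 66.5 and 149.1 in untreated cells and 1248.9 and 1010.5 at 8 h (log2 fold change 3.50, standard error 0.37, adjusted p = 7.98e-04). In these 3 genes every treated array was above every untreated array. VIP, vasoactive intestinal peptide, had 3.1 and 150.2 in untreated cells and 634.4 and 640.6 at 8 h, and DSC1, a desmosomal cadherin, had 84.1 and 5.4 in untreated cells and 1000 and 378.1 at 8 h (adjusted p = 0.0255 and 0.0223, against 0.284 and 0.193 without the block). Both started on 1 array from a signal under 10. With signals under 100 raised to 100 they rose by 2.38 and 2.62. VIP lost its call without Tg 8 h replicate 1 (adjusted p = 0.131), and DSC1 without untreated replicate 2, Tg 8 h replicate 1 or Tg 8 h replicate 2 (0.0515, 0.216 and 0.11).

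Among the falls were the genes of the ID proteins, inhibitors of basic helix-loop-helix factors that BMP signalling maintains. ID2 had 1874.9 and 1452.5 in untreated cells and 307.1 and 179.3 at 8 h (log2 fold change -2.81, standard error 0.18, adjusted p = 5.21e-05). ID1 had 9192.8 and 5832.9 in untreated cells and 2237.4 and 865.7 at 8 h (log2 fold change -2.40, standard error 0.20, adjusted p = 2.28e-04 with the block and 0.0751 without it). ID3 had 13432.3 and 7221.9 in untreated cells and 5151.4 and 2029 at 8 h (log2 fold change -1.61, standard error 0.16, adjusted p = 6.91e-04 with the block and 0.258 without it). In each the brighter treated array lay under the dimmer untreated one. Of the 24 genes of the ID and BMP list read, 6 fell and 1, the ligand gene BMP2, rose, with a median of -0.32. BMP2 had 226.9 and 492.1 in untreated cells and 1452.9 and 1201.7 at 8 h (log2 fold change 1.98, standard error 0.31, adjusted p = 0.00591 with the block and 0.0743 without it). The other falls were those of the inhibitory SMADs, SMAD6 by 1.39 and SMAD7 by 1.11, and of the pseudoreceptor BAMBI by 0.67 on the log2 scale. The count of falls was 3 without either untreated array or without Tg 8 h replicate 1, and ID2 alone passed without the block.

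Some Hedgehog and neural progenitor genes fell. Of 10 Hedgehog pathway genes read, 3 fell and 0 rose, with a median of -0.87. The transcription factor GLI3 had 2021.4 and 1913.3 in untreated cells and 982.3 and 939.3 at 8 h (log2 fold change -1.03, standard error 0.14, adjusted p = 0.00261 with the block and 0.0682 without it). GLI2 had 466.9 and 475.1 in untreated cells and 196 and 219.2 at 8 h (log2 fold change -1.18, standard error 0.25, adjusted p = 0.0243 with the block and 0.165 without it). GAS1, a coreceptor for Hedgehog ligands, had 302.2 and 151.3 in untreated cells and 110.6 and 3.2 at 8 h (log2 fold change -3.51, standard error 0.83, adjusted p = 0.036 with the block and 0.465 without it), but 1 treated array was near 0 and with signals under 100 raised to 100 the value was -1.02 (adjusted p = 0.193). Of 10 medulloblastoma and neural progenitor markers read, 4 fell: GLI2, SOX2 by 1.15, SOX4 by 0.95 and ZIC1 by 0.59 on the log2 scale. The summed signal of the 15 markers on the array was 12658.4 and 13590 in untreated cells and 9565.8 and 9450.5 at 8 h.

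These calls rested on few arrays. Without untreated replicate 1, the adjusted p was 0.141 for GLI2, 0.15 for SOX2 and 0.383 for ZIC1. Without untreated replicate 2 it was 0.15, 0.162 and 0.112 for these, 0.0527 for SOX4 and 0.241 for GAS1. Without Tg 8 h replicate 1 it was 0.15 for GLI2 and 0.488 for ZIC1, and without Tg 8 h replicate 2 0.159 for SOX2. Without the 3 h arrays it was 0.08 and 0.0637 for GAS1 and 0.0562 and 0.0526 for ZIC1. GLI3 passed without each array in turn. The Hedgehog count of falls ran from 1 to 4 and that of the markers from 0, without untreated replicate 2, to 4.

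Among 12 reported substrates of decay by IRE1 read, 4 fell and 1 rose, with a median of -0.47. CD59, a membrane inhibitor of complement, had 6129.9 and 4479 in untreated cells and 1186.3 and 774.6 at 8 h (log2 fold change -2.45, standard error 0.13, adjusted p = 2.49e-05). TGOLN2, a trans-Golgi protein, had 7189 and 4963.9 in untreated cells and 1376.1 and 1211.6 at 8 h (log2 fold change -2.21, standard error 0.14, adjusted p = 4.95e-05). BLOC1S1, a substrate widely used as a readout of this decay, had 1886.5 and 1919.5 in untreated cells and 664.5 and 821.3 at 8 h (log2 fold change -1.37, standard error 0.17, adjusted p = 0.00163 with the block and 0.0675 without it). GALNT10, a Golgi glycosyl transferase, had 1901 and 1779.4 in untreated cells and 596.7 and 1090.2 at 8 h (log2 fold change -1.19, standard error 0.22, adjusted p = 0.0114 with the block and 0.206 without it), and without untreated replicate 1 its adjusted p was 0.156. Untreated and treated arrays were apart for all 4. The rise was that of PREB, the exchange factor for COPII coat assembly, by 0.86 on the log2 scale, which did not pass without untreated replicate 2.

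Other large falls came from different pathways. SLC2A12, a glucose transporter, had 586.6 and 544.8 in untreated cells and 28.6 and 68.2 at 8 h (log2 fold change -3.68, standard error 0.39, adjusted p = 7.98e-04), and with signals under 100 raised to 100 the value was -2.50. LGR4, a receptor for R-spondins, had 1701.5 and 1195.2 in untreated cells and 473.1 and 232.4 at 8 h (log2 fold change -2.10, standard error 0.20, adjusted p = 5.42e-04 with the block and 0.063 without it). JADE2, a subunit of histone acetyl transferase complexes, had 899.5 and 824.9 in untreated cells and 252.1 and 170.9 at 8 h (log2 fold change -2.05, standard error 0.22, adjusted p = 8.97e-04). For these 3 genes both treated arrays lay well under the dimmer untreated array. Both treated signals of SLC2A12 were under 100, so it was read only through its untreated arrays and could only enter as lower. By the local pooled error test its adjusted p was 0.504, against 0.00179 for LGR4 and 0.00614 for JADE2. NREP, a neuronal regeneration protein, had 10042.7 and 3347.3 in untreated cells and 2708 and 810 at 8 h (log2 fold change -1.97, standard error 0.12, adjusted p = 5.01e-05 with the block and 0.406 without it). Replicate 1 was brighter than replicate 2 in both groups, no treated signal reached an untreated one, and the pairs differed by -1.89 and -2.05 on the log2 scale. FAM20C, the kinase of secreted proteins in the Golgi, had 980.4 and 835.2 in untreated cells and 133.8 and 277.8 at 8 h (log2 fold change -2.23, standard error 0.31, adjusted p = 0.00323), and without untreated replicate 1 its adjusted p was 0.0522.

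Dimmer or less steady falls were those of RGCC, a regulator of the cell cycle, with 1672.4 and 336.5 in untreated cells and 29 and 55.6 at 8 h, PCYOX1L, a relative of prenylcysteine oxidase, with 622.4 and 672 in untreated cells and 104 and 241.4 at 8 h, and ENG, the TGF-beta coreceptor endoglin, with 719.5 and 385.2 in untreated cells and 117 and 138.1 at 8 h. Their log2 fold changes were -4.22, -2.03 and -2.05, and without untreated replicate 1 the adjusted p was 0.0967, 0.0744 and 0.122. RGCC fell by 2.91 with signals under 100 raised to 100. CBX2, a polycomb protein, and NRARP, a feedback inhibitor of Notch, had 488.9 and 897 in untreated cells and 160.5 and 197.4 at 8 h for CBX2 and 493.1 and 746.1 in untreated cells and 206.2 and 130.3 at 8 h for NRARP. They fell by 1.90 and 1.89 on the log2 scale, and without untreated replicate 2 the adjusted p was 0.0625 and 0.0964.

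Of 35 extracellular matrix genes read, 6 fell and 2 rose, with a median of -0.22. COL5A1 had 4379.4 and 4006.2 in untreated cells and 2116.2 and 2450 at 8 h (log2 fold change -0.88, standard error 0.15, adjusted p = 0.00949 with the block and 0.147 without it), and COL4A1, COL4A2 and the fibrillin gene FBN1 fell by 0.77, 0.76 and 0.80 on the log2 scale. LOX, the enzyme that crosslinks collagen, rose by 0.84, and COL5A2 by 0.62. The count of falls was 0 without untreated replicate 1, 2 without untreated replicate 2, 1 without Tg 8 h replicate 1 and 3 without Tg 8 h replicate 2. Without untreated replicate 1, the adjusted p was 0.105 for COL5A1, 0.0517 for COL4A1, 0.0973 for FBN1 and 0.0714 for LOX.

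Of 14 collagen-modifying enzymes, P3H4, a partner of lysyl hydroxylase, had 1649.4 and 1150.1 in untreated cells and 443.8 and 366.2 at 8 h (log2 fold change -1.77, standard error 0.22, adjusted p = 0.00186). PCOLCE, an enhancer of procollagen cleavage, also fell, by 0.70, and the collagen chaperone gene SERPINH1 rose by 0.54. Calls of PCOLCE and SERPINH1 were lost without either untreated array (adjusted p = 0.126 and 0.0545 for PCOLCE, 0.123 and 0.112 for SERPINH1). The collagen genes COL1A1 and COL3A1, at 33447.7 and 23528.3 and at 6888.6 and 2904.9 in untreated cells, were at 30015 and 17638.9 and at 4908.9 and 2357.7 at 8 h and did not pass.

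The S phase and the G2 and mitosis lists had medians below that of all genes, while that of the G1 regulators, 0.17, lay above it. Of 50 S phase and E2F genes read, 18 fell and 2 rose, with a median of -0.42 (37 of 50 were lower in both pairs). Of 42 G2 and mitosis genes read, 11 fell and 0 rose, with a median of -0.41 (36 of 42 lower in both pairs). Over all genes read, 4826 of 12195 had a log2 fold change above 0, so most did not rise. In the respiratory chain list, which had 0 calls, 31 of 41 were also lower in both pairs. Being lower in both pairs is therefore not particular to these lists. E2F8, a repressor of the E2F family, had 891.5 and 975.8 in untreated cells and 262.9 and 245.8 at 8 h (log2 fold change -1.88, standard error 0.19, adjusted p = 6.84e-04). CDT1, which licenses replication origins, had 1220.3 and 1643.6 in untreated cells and 758.7 and 373.8 at 8 h (log2 fold change -1.41, standard error 0.29, adjusted p = 0.0194 with the block and 0.193 without it). E2F1 had 174.6 and 419.3 in untreated cells and 237.1 and 173.3 at 8 h and did not pass (log2 fold change -0.42, adjusted p = 0.685). Its untreated arrays lay on both sides of the treated replicate 1 array. The mitotic genes BUB1B, ESPL1, KIF20A and KIF11 fell by 0.89, 0.86, 0.75 and 0.75 on the log2 scale.

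These counts rested on the block and on single arrays. Without the block 1 of the 18 and 0 of the 11 passed. The S phase count was 3 without untreated replicate 1, 4 without untreated replicate 2 and 9 without either Tg 8 h array, and 0 mitotic genes passed without untreated replicate 1, but 2 without Tg 8 h replicate 1. With each array centred on its median, 11 and 9 fell. CDT1 lost its call without untreated replicate 2 (adjusted p = 0.126). BUB1B and ESPL1 had an adjusted p of 0.0942 and 0.0907 without untreated replicate 1. KIF20A and KIF11 had 0.161 and 0.182 there and 0.118 and 0.155 without untreated replicate 2. Without Tg 8 h replicate 1 the values of BUB1B, ESPL1, KIF20A and KIF11 were 0.0561, 0.0795, 0.204 and 0.0595.

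Both rises of the S phase list went against its direction. CDC6, which loads the replicative helicase, had 2351.6 and 2661.8 in untreated cells and 9383.5 and 9032.3 at 8 h (log2 fold change 1.88, standard error 0.20, adjusted p = 7.98e-04). E2F7, an atypical repressor of the family like E2F8, had 1895.3 and 3167.2 in untreated cells and 7089.9 and 7548.8 at 8 h (log2 fold change 1.58, standard error 0.16, adjusted p = 6.81e-04 with the block and 0.0684 without it). In both genes all treated signals were well above the untreated ones. Of 17 G1 regulators read, 3 rose and 0 fell. CDKN1A, the inhibitor p21, had 1338.5 and 1424.6 in untreated cells and 4382.4 and 5284.8 at 8 h (log2 fold change 1.80, standard error 0.14, adjusted p = 1.63e-04). GADD45A, a growth arrest gene, had 3199.8 and 6077.7 in untreated cells and 10532.4 and 12095.3 at 8 h (log2 fold change 1.36, standard error 0.17, adjusted p = 0.00209 with the block and 0.135 without it), and BTG1, which restrains proliferation, rose by 1.15 on the log2 scale. CCND1, cyclin D1, had 2976.3 and 1790.9 in untreated cells and 1864.4 and 1471.8 at 8 h and did not pass (log2 fold change -0.48, adjusted p = 0.0883).

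E2F sites, taken as TTTCGCGC or TTTGGCGC, stood in 168 of the 10015 promoters of genes read (1.68%), in 11 of the 418 that fell (2.63%), in 4 of the 514 that rose (0.778%) and in 9 of the 44 S phase and E2F genes in the table (20.5%). The fallen named gene with the largest change that holds one was ZNF367, which encodes a zinc finger protein. It had 601.5 and 879.8 in untreated cells and 192 and 75.9 at 8 h (log2 fold change -2.59, standard error 0.39, adjusted p = 0.00476 with the block and 0.0832 without it), and all treated signals lay under the untreated ones. Its 250 bases, at chr9:96418371-96418620 of GRCh38.p14 on the minus strand, are shown with the site in capitals, which begins 35 bases before the start and lies on the opposite strand.
ZNF367: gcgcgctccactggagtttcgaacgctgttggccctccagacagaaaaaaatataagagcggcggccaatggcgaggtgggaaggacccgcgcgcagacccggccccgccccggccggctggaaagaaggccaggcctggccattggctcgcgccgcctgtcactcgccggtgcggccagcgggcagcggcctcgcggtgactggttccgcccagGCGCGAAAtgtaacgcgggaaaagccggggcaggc

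Other groups held few calls or none. Of 27 proteasome subunit genes, 41 of the respiratory chain and 36 of cytosolic ribosomal proteins, 0 passed in either direction with limma, and their medians were -0.06, -0.15 and -0.09, beside -0.09 for all genes. The local pooled error test also called 0 of them, and at an unadjusted p under 0.05 limma had 3 respiratory chain genes lower and 0 of the others in either direction. Of 27 cytosolic and mitochondrial chaperone genes, LONP1 and HSPA9, a protease and a chaperone of mitochondria, rose by 0.80 and 0.54, and DNAJA1, a cytosolic cochaperone, fell by 0.67. Without untreated replicate 1 their adjusted p was 0.353, 0.204 and 0.237. Without Tg 8 h replicate 1 it was 0.303, 0.363 and 0.257. Without untreated replicate 2 the value of HSPA9 was 0.0785, and that of LONP1 was 0.0597 and 0.0576 without the 3 h arrays. Of 20 NRF2 targets 2 rose, SLC7A11 and GCLC, and 1 fell, KEAP1. Without untreated replicate 1 the adjusted p of GCLC and KEAP1 was 0.251 and 0.204, and without untreated replicate 2 it was 0.145 and 0.0785. Without Tg 8 h replicate 1 it was 0.299 and 0.192, and for GCLC 0.0714 without Tg 8 h replicate 2.

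Of 33 glycolysis and hypoxia genes, NDRG1, HK2 and SLC2A3 rose and CA12 and SLC2A12 fell, with a median of -0.07. NDRG1, a stress-responsive gene that hypoxia also raises, had 510 and 592.1 in untreated cells and 1634.8 and 1820 at 8 h (log2 fold change 1.65, standard error 0.16, adjusted p = 5.00e-04). CA12, a carbonic anhydrase, had 606.7 and 436.8 in untreated cells and 279.6 and 266.6 at 8 h, and its call was lost without either untreated array, Tg 3 h replicate 1 or Tg 8 h replicate 1 (adjusted p = 0.329, 0.128, 0.0556 and 0.328).

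**Figure D4:**
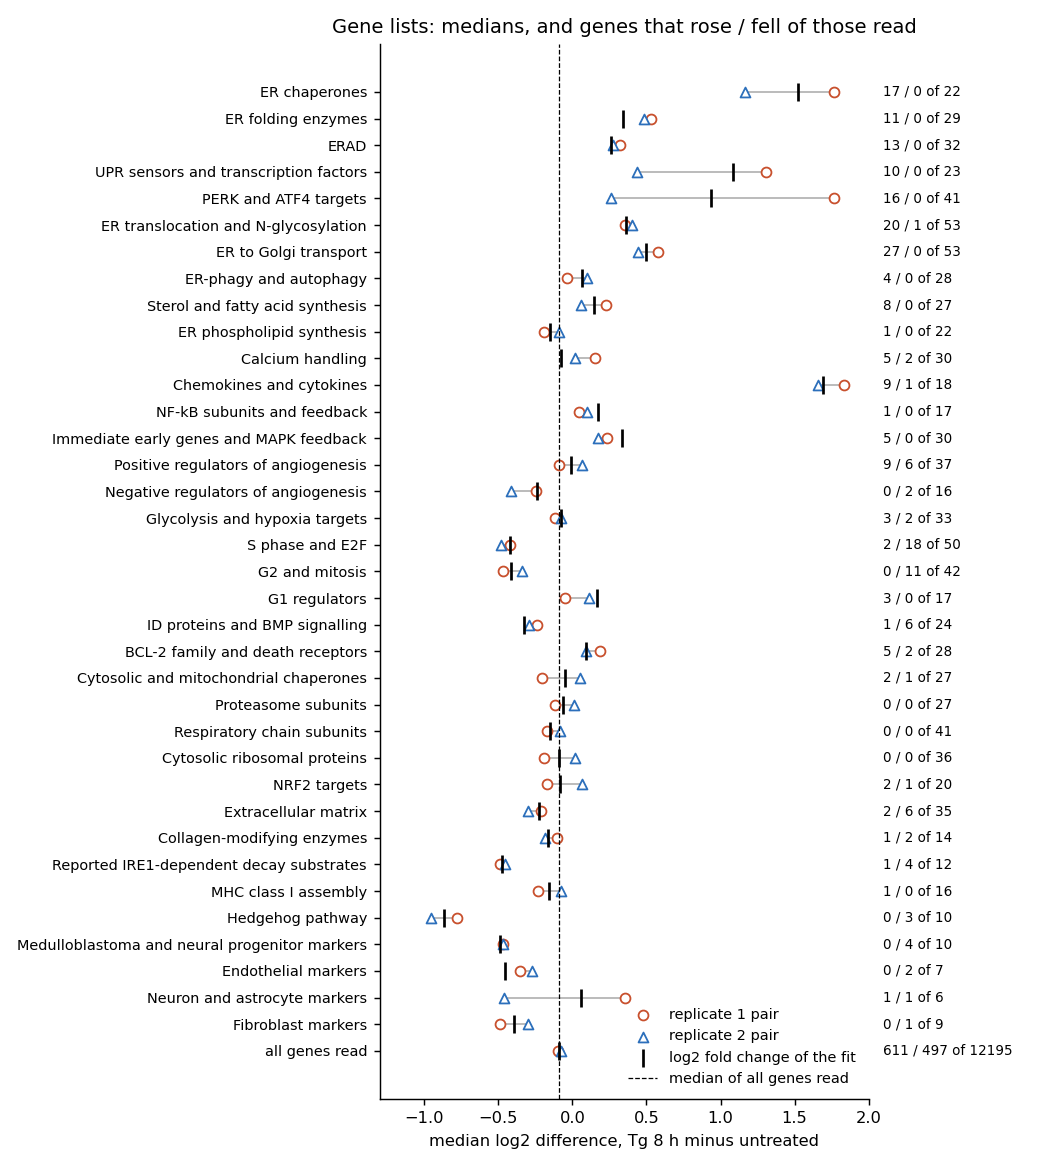
Median log2 difference, Tg 8 h minus untreated, of the gene lists with at least 5 genes read. Circles are the replicate 1 pair, triangles the replicate 2 pair, bars the fit over both, and the dashed line the median of all genes, -0.09. The numbers at the right give the genes that rose and fell of those read. Chemokines, ER chaperones, UPR factors and PERK and ATF4 targets lie farthest to the right, and the last of these has the widest gap between the pairs.

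The 8 h arrays were also set against the 3 h arrays in the same fit, to show what was late. Among these arrays Tg 3 h replicate 1 had the highest ACTB ratio and the lowest 18S rRNA signal. The part of this array's RNA quality in the late calls was not tested. At 8 h 198 genes were higher and 225 lower than at 3 h, 1.62% and 1.85% of the genes read. Without the block 0 passed in either direction, without Tg 3 h replicate 1 the counts were 1 and 4, without Tg 3 h replicate 2 they were 80 and 93, and without Tg 8 h replicate 1 they were 56 and 98. Of the secretory lists, 9 of 22 ER chaperones, 7 of 29 folding enzymes, 7 of 32 ERAD genes, 14 of 53 genes of translocation and N-glycosylation and 10 of 53 of ER to Golgi transport were higher at 8 h than at 3 h. Of the 41 PERK and ATF4 targets 0 passed as higher. Their median log2 fold change against untreated was 0.48 at 3 h and 0.94 at 8 h. The lack of calls therefore does not show that they stayed level. Lower at 8 h than at 3 h were 7 of 30 immediate early genes, 9 of 50 S phase genes and 5 of 24 of the ID and BMP list.

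Among genes that passed against 3 h with a mean of at least 500 in the higher of these 2 groups, the largest late rises were those of ESRP1, FIBIN, KLHDC7B, HKDC1 and LAMP3. LAMP3 had 121 and 142 at 3 h and 615.1 and 1321.4 at 8 h, and KLHDC7B had 110.8 and 181.8 and 1248.9 and 1010.5. ESRP1, a splicing factor of epithelial cells, had 10.5 and 116.4 and 411.8 and 643.3. FIBIN had 20.9 and 171 and 615.2 and 614.3, and HKDC1, a hexokinase, 27.3 and 715.1 and 672.7 and 1642.3. In each gene every 8 h array was above the 3 h array of its own number, and for HKDC1 the 3 h array of replicate 2 was above the 8 h array of replicate 1. The 3 h replicate 1 signals of ESRP1, FIBIN and HKDC1 were under 100, and with signals under 100 raised to 100 these genes were higher than at 3 h by 2.25, 2.23 and 1.98 on the log2 scale.

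By the same rule the largest late falls were those of GAS1, RGCC, NR4A1, NEDD9 and ID2. NEDD9, an adaptor of focal adhesions, had 1348.7 and 1212.1 in untreated cells, 3231.1 and 2917.5 at 3 h and 319 and 553.1 at 8 h, thus above the untreated arrays first and below them later. NR4A1, an immediate early nuclear receptor, had 199.6 and 136, 1039.8 and 413.9 and 52.4 and 124.1 in the same order, and at 8 h it did not differ from untreated by the test (adjusted p = 0.302). GAS1 had 1231.1 and 312.5 at 3 h and 110.6 and 3.2 at 8 h. ID2 had 2101.4 and 1246.8 at 3 h, on either side of its untreated signals, and RGCC had 1136.4 and 252.9. At 8 h they had 307.1 and 179.3 and 29 and 55.6. With signals under 100 raised to 100 the differences from 3 h were -2.56 for GAS1, -2.56 for NR4A1 and -2.42 for RGCC, and RGCC then did not pass (adjusted p = 0.0507).

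**Figure D5:**
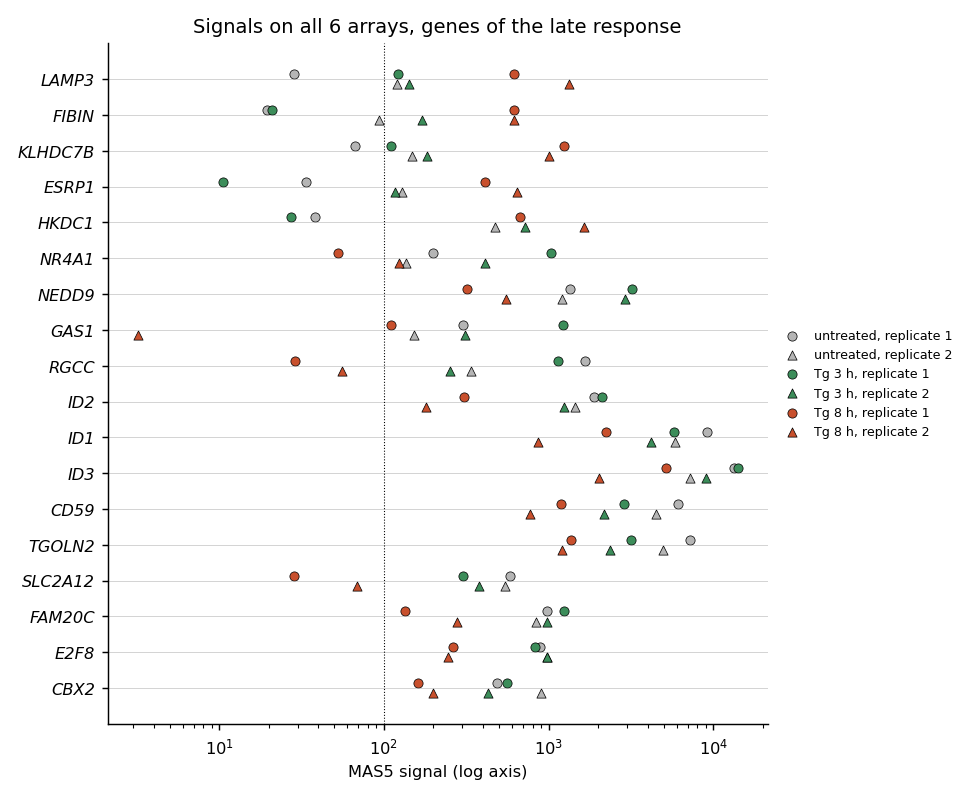
MAS5 signal on a log axis on all 6 arrays for 18 genes, with circles for replicate 1, triangles for replicate 2, grey for untreated cells, green for Tg 3 h and orange for Tg 8 h. The dotted line marks a signal of 100. NEDD9 and GAS1 stand highest at 3 h and lowest at 8 h, ID2 and ID3 stand lower at 8 h but not at 3 h, and CD59 and TGOLN2 step down at both times.

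Different probe sets of a gene went the same way where they were called. Of the 5763 genes with several probe sets tested, 312 had 2 or more called, and 0 of them in opposite directions. HK2, a hexokinase, was, like ETNK1, an exception in its uncalled probe sets. It had 2424.2 and 2144.8 in untreated cells and 4663.1 and 5634.2 at 8 h on the probe set read (log2 fold change 1.17, standard error 0.17, adjusted p = 0.00426 with the block and 0.104 without it), while another probe set had 700.6 and 670.1 and then 513.7 and 209.1, and a further one had 518.4 and 435.4 and then 317.2 and 316.4. Those 2 did not pass (adjusted p = 0.0582 and 0.153). Another probe set of RCAN1 had 240.9 and 203.4 in untreated cells and 8526.6 and 2952.1 at 8 h (log2 fold change 4.50, adjusted p = 2.74e-05).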

How the data were processed

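RNA was measured on Affymetrix HG-U133 Plus 2.0 arrays. The deposited values are signal intensities on a linear scale, which the authors summarized per probe set with MAS5 and scaled on each array to a 2% trimmed mean of 500, here 500.07 to 500.08. Their log2 was taken here. The study speaks of 2 independent experiments, and nothing more says which cultures share a number, so the p-values cover only how far these arrays spread, which may be technical, and 2 per group limit the precision. A single-value exact permutation test of 2 arrays against 2, without the pairing, could not go below p = 0.333. Keeping the pairs allows fewer relabellings, so its bound is higher.

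The members and the 37 gene lists were chosen with earlier results of these data known. The platform annotation gave 1 gene symbol for 41097 of 54675 probe sets, several for 1801 and none for 11777, and 3530 probe sets without a single gene were tested but not named. Of those with 1 symbol, 41043 matched RefSeq by Entrez identifier and 0 symbols changed. The 62 control probe sets were left out. Limma 3.58.1 in R 4.3.3 fitted the 3 groups on all 6 arrays with the replicate number as a block and an intensity trend (lmFit, eBayes), with two-sided tests and adjustment by Benjamini-Hochberg over all 25351. Tables were made in Python 3.11.15 with pandas 2.3.3. The numbers pair the arrays: deviations from the group means correlated over probe sets (not independent of each other) with r = 0.293 to 0.403 for the 3 pairs of groups, and 0.648 to 0.693 over the 12413 probe sets with a mean signal of at least 500.

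Named genes were, among called genes whose higher group averaged 500 or more, the 15 largest rises and 15 largest falls without overlap between the groups, up to 4 called genes of each list, a set of UPR, angiogenesis and growth control genes, the 5 with the replicate pairs farthest apart, and the 5 largest rises and falls among genes called against 3 h. Further list members named beside a count of 5 or fewer, and single probe sets, were picked with their values known. Alternatives were no block, the 4 arrays alone, the local pooled error test that the methods name, no intensity trend, quantile normalization, median centring, no filter, a minimum of 200, a floor of 100 under all signals, 50 added before the log, a fold of at least 2, the mean of a gene's probe sets, and leaving out each array in turn. The fits were also run on simulated data, built with a replicate shift and a spread set by signal. As these are what the main fit assumes, that run cannot decide whether the block and the trend suit these arrays.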

Additional observations from a re-analysis of the deposited data

Results flagged for a closer look

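Of the 140 named genes, 62 differed between 8 h and 3 h of Tg by the limma contrast of the 2 times with the block, 37 higher and 25 lower at 8 h, with adjusted p from 7.69e-04 to 0.049. The log2 difference, Tg 8 h minus Tg 3 h, follows each gene. Higher at 8 h among genes of chaperones, folding enzymes and ERAD were FKBP11 (1.49), PDIA4 (1.42), SEL1L (1.24), FKBP14 (1.19), SDF2L1 (1.05), HSP90B1 (0.94), HYOU1 (0.90), CRELD2 (0.81) and DERL2 (0.67). Higher at 8 h among genes of glycosylation, transport and autophagy were WIPI1 (2.15), SEC24D (1.85), GFPT1 (1.63), CCPG1 (1.24), MIA2 (1.21), SEC23B (1.15), MAGT1 (0.94), UAP1 (0.81), ALG2 (0.75), MAP1LC3B (0.75) and TMEM50B (0.75). Higher at 8 h among genes of signals, receptors and stress sensing were TSLP (2.46), ANG (1.76), IL1A (1.31), FGF2 (1.25), TNFRSF10B (1.02) and ERN1 (1.01). Higher at 8 h among genes of the cell cycle, calcium and metabolism were NUCB2 (1.35), CDC6 (1.31), CDKN1A (1.15), NDRG1 (1.05), HK2 (0.96) and BTG1 (0.85). Higher and on none of the lists were ESRP1 (3.88), FIBIN (3.36), KLHDC7B (2.98), HKDC1 (2.91) and LAMP3 (2.78). Lower at 8 h on the ID, Hedgehog, progenitor and immediate early lists were GAS1 (-5.04), NR4A1 (-3.02), ID2 (-2.79), ID1 (-1.82), ID3 (-1.81), GLI2 (-1.20), SOX4 (-0.83) and GLI3 (-0.64). Lower on the other lists were SLC2A12 (-2.93), E2F8 (-1.82), ERG (-1.44), CD59 (-1.38), TNFRSF21 (-1.34), CDT1 (-1.31), TGOLN2 (-1.08), KEAP1 (-0.68) and TIMP2 (-0.66). Lower and on none of the lists were RGCC (-3.74), NEDD9 (-2.87), FAM20C (-2.52), ZNF367 (-2.23), LGR4 (-1.51), NREP (-1.51), CBX2 (-1.46) and PCYOX1L (-1.40). In all 62 both replicate pairs had the direction given, which the fit with the block favours. Without the block 0 of them passed, with adjusted p from 0.238 to 0.859. Leaving out Tg 3 h replicate 1 left few calls of this contrast over all genes read, as given with the late counts. The 62 calls thus rested on that array as well. In 9 of them at least 1 of the 4 arrays was under 100, which leaves the size uncertain. With signals under 100 raised to 100, 51 of the 62 passed, and the differences of GAS1, RGCC, ESRP1 and FIBIN were -2.56, -2.42, 2.25 and 2.23.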

How the results depend on the processing

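Without the replicate block, limma called 141 probe sets and 83 genes higher and 40 and 28 lower at 8 h, and 0 genes higher and 0 lower than at 3 h (368 and 608 before adjustment, with p under 0.05). The local pooled error test gave 239 and 141 higher, 49 and 33 lower, and 23 and 20 against 3 h. Without the intensity trend 0 probe sets and 0 genes passed in either direction and either comparison, with 948 genes higher and 1305 lower than untreated, and 634 and 1015 against 3 h, at an unadjusted p under 0.05. A fold of at least 2 kept 579 probe sets and 316 genes higher, 322 and 197 lower, and 77 and 121 against 3 h. Leaving out each array gave 438 to 1015 probe sets higher and 132 to 830 lower, 250 to 586 genes higher and 89 to 485 lower, and 1 to 306 higher and 4 to 346 lower than at 3 h. The other settings stayed within 1.5 times each of these counts.

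Of the named genes called, 75 passed without each array in turn, 72 by the local pooled error test and 41 without the block, and 39 both without each array and without the block. Of the named genes, 3 changed direction in a setting: HK2 to -0.16 as the mean of its probe sets, E2F1 to 0.61 without untreated replicate 2 (-1.45 to 0.61 over the arrays left out), and NR4A1 to 0.062 without Tg 8 h replicate 1 (-2.12 to 0.062). Neither E2F1 nor NR4A1 was called at 8 h. The causes were not tested, except that the HK2 mean includes 2 probe sets with lower signals at 8 h. Dim probe sets limit the size of a change. With signals under 100 raised to 100, 124 of the named genes called still passed. With 1 array of a group left out, the remaining one is assumed to vary like the other groups.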

Other observations

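Marker genes of other cell types were read from the same arrays. Of 12 endothelial markers on the array, 4 had a signal of at least 100 on all 4 arrays, and CDH5, CLDN5, ESAM and VWF lay under 100 on all 4. Of the 7 read, ENG and ERG fell and 0 rose. ERG, a transcription factor of endothelium, had 528.1 and 174.4 in untreated cells and 241.9 and 62.6 at 8 h, with an adjusted p of 0.0312 under the block and 0.69 without it, and its call was lost without each array in turn except Tg 3 h replicate 2 (highest adjusted p = 0.180). Of 12 neuron and astrocyte markers, 3 had at least 100 on all 4 arrays, while GFAP and the synaptic gene SYP lay under 100 on all 4. Of the 6 read, the synaptotagmin gene SYT1 rose by 1.14 and the tubulin gene TUBB3 fell by 0.49 on the log2 scale, and without untreated replicate 1 neither passed (adjusted p = 0.132 and 0.371). Of 9 fibroblast markers read, LUM, lumican, fell by 0.91 on the log2 scale, a call lost without each array in turn (highest adjusted p = 0.299). Of 10 immune markers 1, CD4, was read, and it did not pass. Of 16 genes of MHC class I assembly read, 1 rose, PDIA3, a member of the peptide-loading complex, and 0 fell.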
